A study of Mus musculus with 18 samples.

Results

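Chromatin accessibility of 9 mouse peripheral T-cell lymphomas was compared with that of the 9 normal lymphocyte libraries of the same study as 1 pool. All 18 of the 18 ATAC-seq libraries entered the comparison, chosen by their group labels and not by any measured value. The lymphomas (mPTCL, C57BL/6, genotype p53KO) arose when T cells lacking p53 were given to CD3KO hosts of the same strain, and they were sorted from liver with no marker named. The normal groups were wild-type C57BL/6 cells, 3 libraries each: T cells (CD3+ thy1+, spleen), NKT cells (CD3+ CD1dTet(alpha Gal Cer)+, liver, although their titles carry the abbreviation Sp) and NK cells (CD27- CD11b+, spleen). Every library was made from sorted cells, and peaks on chromosomes 1 to 19 were analysed here. Each normal group had the same weight in the mean against which the lymphomas were set, so the deeper NKT libraries had no extra weight in it. A peak or gene was called higher or lower when edgeR's adjusted p was under 0.05 and the fitted differences from T, from NKT and from NK cells all had the sign of the pooled difference. Genotype, sort, transfer into a CD3KO host and, for the T and NK groups, tissue all differ together between the lymphomas and the normal cells and cannot be told apart. In bulk samples, fewer cells of a type and a weaker signal per cell cannot be told apart either. The labels do not state which libraries are different animals; every p below therefore rests on sample-to-sample spread that may be technical.

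ATAC-seq uses the transposase Tn5, which inserts sequencing adapters where DNA is not wrapped in nucleosomes, so read counts follow the accessibility of promoters and enhancers. T cells recognise antigen through a clonal receptor built from TCR and CD3 chains, NKT cells use a restricted TCR that reads lipids on CD1d, and NK cells use germline receptors that balance activation and inhibition. NKT and NK cells and activated cytotoxic T cells hold their effector genes, such as granzymes and chemokines, in an open state, whereas resting T cells keep open the genes of survival and recirculation.

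Total counts in peaks ran from 670358 to 4844441 in the lymphomas, from 979441 to 2358023 in T cells, from 1433904 to 9097014 in NKT cells and from 417107 to 596601 in NK libraries, so values in NK cells carry the largest counting error. The labelled identities were visible in part. Other markers, with values given below, were less clear than the genes shown here. Zbtb16, which marks NKT cells, reached higher in NK than in NKT libraries. The T and NK ranges of Eomes overlapped, and Slamf6 did not separate NKT cells from the other groups. Cd3e, a chain of the TCR complex, measured 24.6 to 39.5 in T cells, 46.4 to 58.3 in NKT, 0 to 7.78 in NK and 16.8 to 43.9 in lymphoma libraries, in chromosome-scaled CPM. That unit, abbreviated CPM below, is the library-size-scaled count of a peak, or of all peaks of a gene, with every chromosome brought to its mean share of the library. Ncr1, which encodes the NK receptor NKp46, measured 11.5 to 38.9 in NK cells, at most 4.99 in T and NKT cells, and 0 to 26.4 in lymphomas. Trp53 itself, the gene deleted in the lymphomas, measured 49.1 to 85.0 CPM in lymphomas and 28.3 to 81.6 CPM in normal libraries, but the labels do not say which part was deleted, so this checks nothing about the genotype.

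Called changes were mostly gains among weak peaks and losses among strong peaks. Of 61220 tested peaks of 500 bp, 10990 were called higher in the lymphomas (18% of peaks tested) and 5721 were called lower (9.34%). A further 2802 peaks passed the adjusted p but differed in sign between normal groups and were not called. The adjusted p belongs to the pooled difference, and for each normal group only the sign was required. With each group taken alone, NKT cells gave the most gains and losses (13152 and 10685 peaks). The T group gave 4479 gains and 5809 losses, and the NK group 2799 and 1721. The median log2 fold change over all peaks was 0.34, and single changes are best read against that shift. Changes of at least 2-fold numbered 10016 peaks higher and 2585 lower. The split between higher and lower depended on the scaling, with 18240 higher and 5335 lower under RLE over the whole genome, and 5181 higher and 6128 lower on cyclic-loess values. The counts also depended on the normal groups. Without T cells 8937 peaks were higher and 4326 lower, without NKT cells 5026 and 3221, and without NK cells 15574 and 10941.

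Summed over all peaks annotated to a gene symbol, 4306 of 20326 genes were higher (21.2%) and 3197 were lower (15.7%), with a median log2 fold change of 0.11. Gains were the larger changes, since 2596 genes were at least 2-fold higher and 478 at least 2-fold lower. Full separation was rarer and leaned the other way: every lymphoma lay above every normal library in 405 peaks (0.662% of peaks) and 244 genes (1.2% of genes), and below every normal library in 446 peaks (0.729%) and 408 genes (2.01%). The counts differed with the choice of peaks. In a second, smaller table of the study 3444 of 27727 tested peaks were higher and 2556 lower, with a median log2 fold change of 0.08. That table overlapped 96.6% of the peaks that were lower but 13% of those that were higher, against 46% of all tested peaks. The rule that chose the peaks of either table is not given in the sources used here. Peaks may have entered the larger table because they were open in the lymphomas, and how far this set the gains was not tested.

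**Figure D1:**
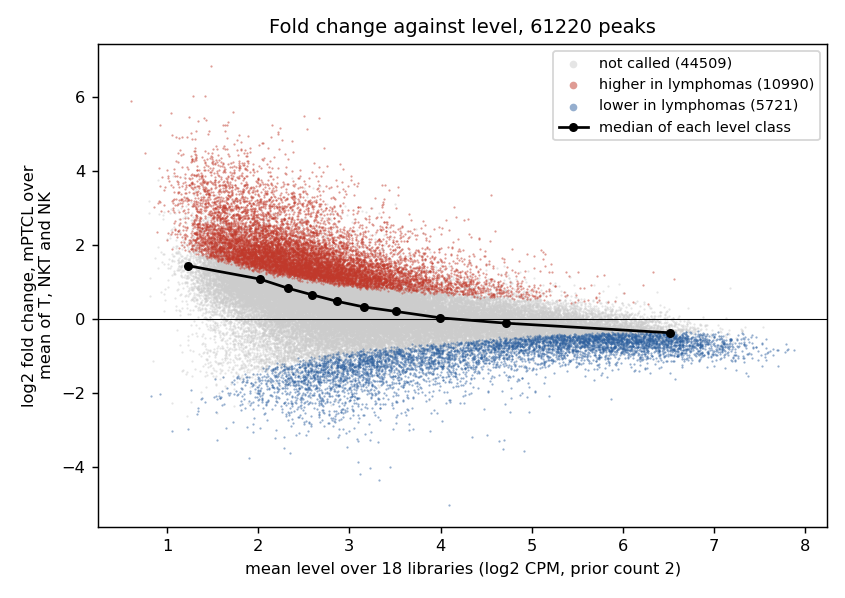
Log2 fold change of each peak (lymphomas over the mean of T, NKT and NK) against its mean level over all 18 libraries in log2 CPM, red for peaks called higher and blue for peaks called lower. The black points are the medians of 10 level classes of equal size, drawn at the middle of each class's range, and fall from 1.43 in the weakest class to -0.38 in the strongest.

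The direction of change followed the level of a peak. In the weakest of 10 level classes 35.1% of peaks were higher and 0.882% lower, and the median log2 fold change was 1.43. In the strongest class 0.719% were higher and 38.9% lower, with a median of -0.38. The normal groups differed in this. Between the weakest and strongest class the median went from 1.27 to -0.47 against T cells and from 2.32 to -0.64 against NKT cells. Against NK cells it stayed between 0.26 and 0.42 in the 9 weaker classes and was -0.06 in the strongest. How far signal over background in each library, or the choice of peaks, set these values was not tested.

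Promoters were the 1 location class of 7 with more peaks lower than higher. Of 19979 promoter peaks, 10.98% were higher and 16.2% were lower, and they made up 56.6% of all peaks that were lower and 347 of the 446 peaks in which every lymphoma lay below every normal library. Intergenic peaks stood at the other end, with 24.8% higher and 5.40% lower. Promoter peaks are stronger, with a median level of 4.10 log2 CPM against 2.66 for intergenic peaks, and in most level classes the location made little difference: in the fifth class 19.9% of promoter peaks and 20.1% of other peaks were higher. In the strongest class 40.3% of promoter peaks and 27.8% of other peaks were lower.

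**Figure D2:**
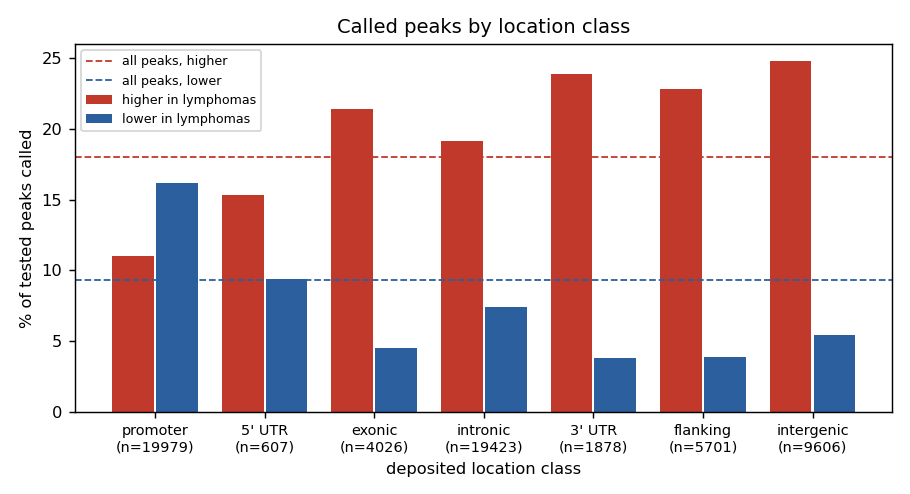
Percent of tested peaks called higher (red) and lower (blue) in the lymphomas for each deposited location class, with the number of peaks tested under each name and the shares over all peaks as dashed lines. Promoters are the 1 class in which the blue bar (16.2%) exceeds the red bar (10.98%).

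The share of all counts that fell in promoter peaks was 48.7% to 59.1% in the lymphomas (median 54.4%), 62.45% to 63.5% in T cells, 59.9% to 64.0% in NKT cells and 55.3% to 60.4% in NK libraries. Lymphomas were therefore below the T and NKT ranges and overlapped the NK range. The mean was 54.4% ± 3.22 (SD, n = 9) against 61.0% over the normal groups (adjusted p = 0.00072, two-sided exact permutation test over 48620 arrangements of the library labels, Benjamini-Hochberg over 7 classes). Counts in 3' UTR peaks took 1.82% to 2.38% in lymphomas and 1.37% to 1.80% in normal libraries, with no overlap (adjusted p = 0.000144, same exact permutation test). Flanking peaks likewise did not overlap, at 5.83% to 7.21% against 4.78% to 5.70% (adjusted p = 0.000144, exact permutation test). In the smaller table the promoter difference was -0.75 percentage points instead of -6.58 and did not pass (adjusted p = 0.492, exact permutation test).

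Among the 8 single peaks that led the losses, the deepest pooled change was at the promoter shared by Tle1 and C630043F03Rik on chromosome 4. By its smallest difference from any normal group that peak ranked 7. Tle1 encodes a Groucho co-repressor, which has no DNA-binding domain and is brought to genes by factors such as TCF/LEF and RUNX proteins. Its promoter peak (chr4:72200768-72201268) measured 0 to 6.22 CPM in the lymphomas, with a median of 2.69. The normal values were 222, 266 and 188 in T cells, 29.7, 31.3 and 24.1 in NKT cells and 144, 102 and 133 in NK libraries. Every lymphoma lay below every normal library, and NKT cells already stood well below the other normal cells. The log2 fold change was -5.04 ± 0.24 (SE, adjusted p = 2.83e-16), with -6.31 against T, -3.32 against NKT and -5.48 against NK cells. A second Tle1 promoter peak was lower by a log2 of -2.81, and the sum over the gene's 3 peaks gave -3.93 ± 0.26 (adjusted p = 2.07e-10).

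The promoter of Mgmt was also lower in every lymphoma. Mgmt encodes the methyltransferase that takes alkyl groups off guanine in damaged DNA, and in human tumours its CpG-rich promoter is a known target of silencing by methylation. Its promoter peak (chr7:136894342-136894842) measured 0 to 4.79 CPM in the lymphomas against 34.5 to 53 in T cells, 33.2 to 39.45 in NKT cells and 15.8 to 25.4 in NK libraries. No lymphoma reached any normal library, and the log2 fold change was -4.04 ± 0.43 (adjusted p = 1.08e-07). The opposite pattern was seen at Klhl32, which encodes a kelch-repeat protein, and at Cdkn2a, which encodes the tumour suppressors p16Ink4a and p19Arf. Klhl32, which has 1 peak, at its promoter, measured 12.8 to 32.0 CPM in the lymphomas, 1.54 to 2.81 in T and 0 to 1.63 in NKT libraries, and held no count in any NK library. Cdkn2a measured 51.0 to 124 CPM in the lymphomas against 13.8 to 50.8 over all normal libraries, again without overlap (log2 fold change 1.86 ± 0.18, adjusted p = 1.05e-07). Of the 4 Cdkn2a peaks, 3 promoter peaks were higher and an intronic peak was not called. The 250 bases before the RefSeq start of these 4 genes (GRCm38.p6, the assembly that mm10 names) are shown as 2 examples in each direction of a promoter peak without overlap, picked after their values were seen, with every CpG in capitals. Other promoters changed as much, and of the 250 bases shown for Klhl32 102 lie under its peak. They lie at chr4:72200894-72201143 (minus strand), chr7:136894336-136894585 (plus), chr4:24851125-24851374 (minus) and chr4:89294620-89294869 (minus) and hold 35, 15, 17 and 40 CpGs.
Tle1: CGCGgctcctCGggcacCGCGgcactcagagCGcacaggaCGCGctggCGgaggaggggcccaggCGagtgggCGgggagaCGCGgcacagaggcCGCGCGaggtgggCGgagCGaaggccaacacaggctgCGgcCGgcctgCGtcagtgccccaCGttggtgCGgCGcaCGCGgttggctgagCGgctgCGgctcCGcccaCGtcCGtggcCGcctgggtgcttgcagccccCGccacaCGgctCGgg
Mgmt: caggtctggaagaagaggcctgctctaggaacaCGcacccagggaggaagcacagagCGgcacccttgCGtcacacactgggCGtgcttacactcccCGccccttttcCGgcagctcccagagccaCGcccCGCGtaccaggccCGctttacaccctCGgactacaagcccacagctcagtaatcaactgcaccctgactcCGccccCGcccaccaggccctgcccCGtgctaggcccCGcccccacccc
Klhl32: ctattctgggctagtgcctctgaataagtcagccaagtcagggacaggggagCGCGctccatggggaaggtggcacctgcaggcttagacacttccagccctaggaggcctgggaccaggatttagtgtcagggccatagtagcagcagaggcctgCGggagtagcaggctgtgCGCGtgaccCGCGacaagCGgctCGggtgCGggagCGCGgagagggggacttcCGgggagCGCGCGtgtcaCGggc
Cdkn2a: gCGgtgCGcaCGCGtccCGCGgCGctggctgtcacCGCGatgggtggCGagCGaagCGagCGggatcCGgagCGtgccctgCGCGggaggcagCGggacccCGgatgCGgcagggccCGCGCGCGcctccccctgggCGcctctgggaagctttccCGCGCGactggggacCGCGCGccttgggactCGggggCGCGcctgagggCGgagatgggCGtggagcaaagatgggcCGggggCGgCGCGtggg
CpG-rich starts were found among the lost and the gained promoters alike: over RefSeq windows of 300 bases (250 before and 50 after a start) that lay under promoter peaks, the median number of CpGs was 24 where the peak was lower, 21 where it was higher and 23 over all 8422 windows. DNA methylation was not measured in these files.

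**Figure D3:**
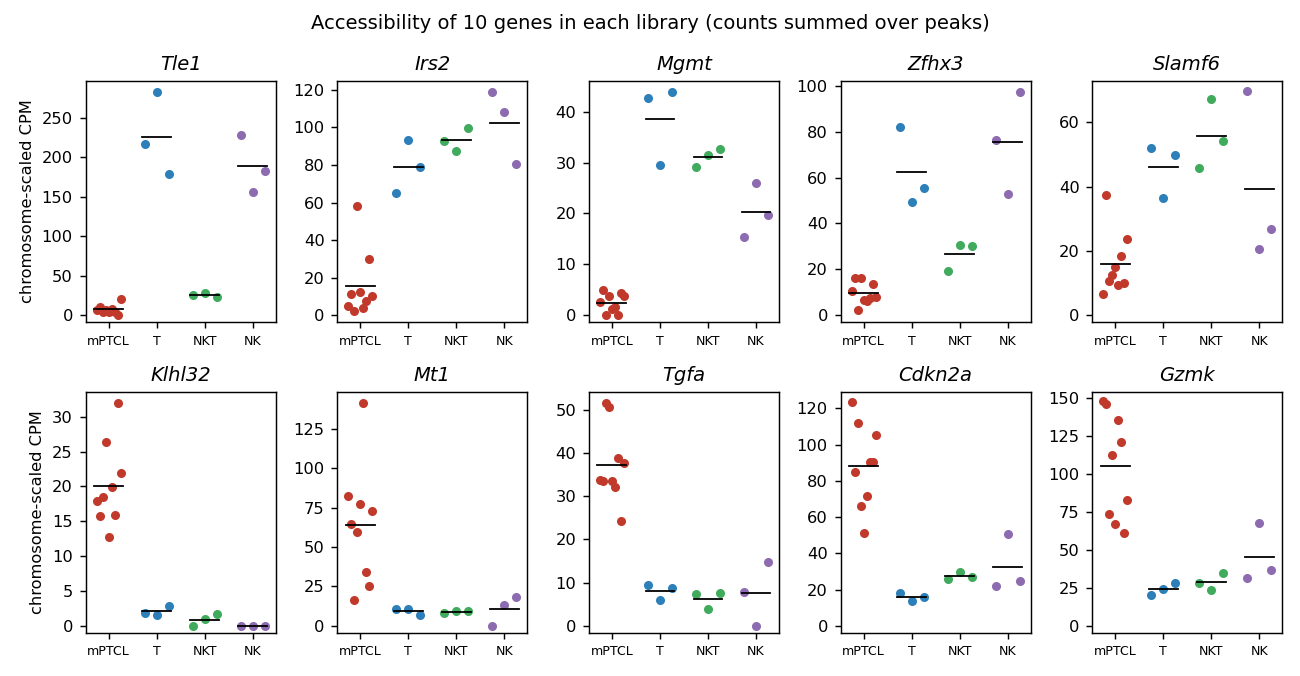
Accessibility of 10 genes in each library in chromosome-scaled CPM, summed over all peaks of the gene, with a point per library and a bar at each group's mean. In the upper row Tle1, Irs2, Mgmt and Zfhx3 have every lymphoma below every normal library, and in the lower row Klhl32, Tgfa and Cdkn2a have every lymphoma above.

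Irs2 and Insr, both of the insulin pathway, were among the strongest losses. Irs2, an adaptor that links the insulin and IGF receptors and several cytokine receptors to PI3K, measured 1.95 to 58.3 CPM in the lymphomas (median 10.0). The normal libraries held 64.9, 93.5 and 78.7 in T cells, 92.5, 87.3 and 99.6 in NKT cells and 119, 108 and 80.4 in NK cells. The groups did not overlap, and all 3 Irs2 promoter peaks were lower (gene log2 fold change -2.64 ± 0.41, adjusted p = 2.58e-05). Insr, the insulin receptor gene on the same chromosome, measured 5.01 to 49.4 CPM in the lymphomas and 34.0 to 100.4 CPM in normal libraries (log2 fold change -1.97 ± 0.33, adjusted p = 6.50e-05). Its groups overlapped only through 1 NK library at 34.0.

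Transcription regulators and other genes completed the list of the 12 strongest losses, ranked by the smallest difference from any normal group. Zfhx3, a large homeodomain and zinc-finger factor that acts as a tumour suppressor in several tissues, measured 2.23 to 16.2 CPM in the lymphomas against 49.5 to 82.0 in T cells, 19.4 to 30.5 in NKT cells and 53 to 97.4 in NK libraries (log2 fold change -2.51 ± 0.27, adjusted p = 3.46e-07). Of its 5 intronic peaks 4 were lower. Mdfic, an inhibitor of MyoD-family and other factors, measured 4.09 to 38 CPM in the lymphomas and 45.1 to 85.1 in normal libraries, and Pcbp3, an RNA-binding protein gene, 23.6 to 74.7 and 94.4 to 140.1. Both were separated from every normal library (log2 fold changes -1.83 ± 0.29 and -1.84 ± 0.16, adjusted p = 3.46e-05 and 2.52e-08). The rest were C630043F03Rik, Vamp9, Slc25a5-ps, Zfp78, Lxn and Cdk20, of which Slc25a5-ps, Lxn and Cdk20 overlapped the normal range. Slc25a5-ps is a pseudogene whose reads could be split with its parent gene.

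Single-peak losses by the same ranking lay mostly at promoters. The peak in the 5' UTR of Cyp2r1, which encodes a vitamin D 25-hydroxylase, measured 0 to 3.97 CPM in the lymphomas against 31.4 to 67.2 over all normal libraries (log2 fold change -4.35 ± 0.31, adjusted p = 4.72e-11). The promoter of Zfp975 measured 0.865 to 4.47 CPM against 11.85 to 48.5. Both were free of overlap, as were the Phxr2, Pcbp3 and Vamp9 promoters and an intergenic peak at chr15:25269556-25270056, with log2 fold changes from -4.20 to -3.53. The Pcbp3 promoter ran from 1.87 to 68.6 CPM among the lymphomas, so its loss was uneven.

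The gains were led by genes with a low level in all normal cells. Cpxm2, a carboxypeptidase-like gene, measured 7.18 to 45.8 CPM in the lymphomas and at most 4.32 in any normal library (log2 fold change 3.56 ± 0.50, adjusted p = 9.13e-06). Mt1, a metallothionein that binds zinc and copper and is induced by metals and glucocorticoids, measured 16.2 to 142 CPM in the lymphomas (median 64.5). The normal libraries held 10.8, 10.8 and 6.96 in T cells, 7.86, 9.10 and 9.24 in NKT cells and 0, 13.2 and 18.6 in NK cells. The lowest lymphoma overlapped the highest NK library over the gene, whereas at the Mt1 promoter peak itself every lymphoma was above every normal library (gene log2 fold change 2.73 ± 0.35, adjusted p = 3.27e-06). Tgfa, a ligand of the EGF receptor, measured 24.2 to 51.6 CPM in the lymphomas and at most 14.7 CPM in normal libraries, without overlap (log2 fold change 2.35 ± 0.26, adjusted p = 5.21e-07).

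Other leading gains were Pde8b, a cAMP phosphodiesterase, at 16.4 to 57.3 CPM in the lymphomas and 0 to 9.80 in normal libraries, and Atp8b3, a P4-type ATPase, at 45.2 to 95.8 and 0 to 21.8. Both were without overlap (log2 fold changes 3.10 ± 0.40 and 2.66 ± 0.26, adjusted p = 3.51e-06 and 1.54e-07). Nrep, a neuronal regeneration-related gene, and Syt17, a synaptotagmin, rose by a log2 of 2.87 and 2.13. The rest of the 12 were the gene models Gm22973, Gm45708, Gm24830, Gm26843 and Gm44613. The surroundings of several leading gains were higher as well. Peaks within 1 Mb had a median log2 fold change of 1.55 at Gm24830 (658 peaks), 1.05 at Gm45708 (62 peaks), 0.90 at Gm26843 (68 peaks), 0.78 at Gm44613 (51 peaks) and 0.60 at Mt1 (115 peaks), against 0.34 over all peaks. Gm45708, Gm26843 and Mt1 lie in 1 stretch of chromosome 8 (93574903 to 94180158) and are not separate cases. Among genes with every lymphoma above every normal library, picked after their values were seen, Gtsf1, a piRNA-pathway factor that is known from germ cells, measured 4.04 to 11.5 CPM in the lymphomas, with 2 counts in all in T, 3 in NKT cells and 0 in NK cells. Among the 8 single peaks that led the gains were those near Gm24830, Taok3, Nmnat2, Arhgef25, Parm1 and Atp4a and 1 in an intergenic stretch at chr10:117981422-117981922, with log2 fold changes from 2.99 to 3.99, and those of Arhgef25, Atp4a and the intergenic stretch were free of overlap.

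Genes of 21 lists were then read by role, with the counts over all genes (21.2% higher, 15.7% lower) as the background. Since strong genes were lower more often, each share is also set beside that of all genes of the same level classes, averaged over the members and called the level share below. The ranges given for a list cover 15 other settings (scalings, tools, filters, the smaller table, promoter peaks alone, and the comparison without each normal group). Among genes of the TCR complex and its signalling, 7 of 27 were lower (25.9%, level share 22.4%) and 1 was higher, with a median log2 fold change of -0.15 against 0.11 over all genes. The balance depended on the normal groups: 2 were lower and 3 higher without NKT cells, 13 were lower and 2 higher without NK cells, and the median ran from -0.49 to -0.01 over the settings. Among those that were lower were the receptor chain Cd247, the co-stimulatory receptors Cd28 and Icos, the kinase Prkcq, the Ras activator Rasgrp1 and the ubiquitin ligase Cblb, which restrains T-cell activation. Cblb measured 168 to 335 CPM in the lymphomas against 379.5 to 556 in normal libraries, the 1 gene of the list with no overlap (log2 fold change -0.79 ± 0.14, adjusted p = 0.000127). Cd28 measured 10.3 to 98.6 CPM in the lymphomas, 94.7 to 102 in T cells, 173 to 219 in NKT cells and 50.4 to 99.7 in NK libraries (log2 fold change -1.08 ± 0.27, adjusted p = 0.00302). In promoter peaks alone Prkcq and Rasgrp1 took a positive sign (0.19 and 0.26). Cd8a was higher (log2 fold change 1.30 ± 0.33, adjusted p = 0.00349), mostly against NKT cells (3.15) and hardly against T cells (0.19). Cd4 measured 2.11 to 15.3 CPM in the lymphomas, 22.6 to 29.6 in T and 201 to 238 in NKT libraries but 0 to 11.7 in NK cells, and was not called because the sign differed.

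Of 18 T-cell transcription factors 7 were lower and none higher, with a median of -0.30. They are strong genes, and their 38.9% lower was close to the level share of 37.2%. Over the settings 5 to 10 were lower and 0 to 3 higher, and the median kept its sign (-0.42 to -0.17). The 7 that were lower were Bach2, Ets1, Ikzf1, Klf2, Satb1, Tcf7 and Tox. Ets1, an ETS factor required for T-cell development and survival, measured 132 to 177 CPM in the lymphomas and 178 to 308 in normal libraries, without overlap (log2 fold change -0.83 ± 0.10, adjusted p = 1.99e-06). Tox, an HMG-box factor of T-cell and innate lymphoid development that also marks chronically stimulated T cells, measured 60.7 to 176 CPM in the lymphomas against 278 to 375 in T cells, 164 to 198 in NKT cells and 258 to 431 in NK libraries (log2 fold change -1.20 ± 0.15, adjusted p = 3.27e-06). Of its 17 peaks, 13 were lower and none higher. Tcf7, the TCF1 gene of naive and memory T cells, measured 59.2 to 182 CPM against 147 to 219 (log2 fold change -0.57 ± 0.15, adjusted p = 0.00483). Ikzf1 and Tcf7, both on chromosome 11, lost that direction on some scalings and were at 0.03 to 0.09 and 0.01 to 0.04 with library totals, RLE and cyclic loess.

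NKT-cell genes were divided, with 2 of 15 higher, 3 lower (20% against a level share of 17.4%) and a median of 0.20, which was -0.24 on cyclic-loess values, -0.07 by limma voom and -0.18 in the smaller table. Slamf6, a receptor of the SLAM family that NKT cells need in the thymus, measured 6.46 to 37.4 CPM in the lymphomas against 36.3 to 51.9 in T cells, 45.9 to 67.4 in NKT cells and 20.7 to 69.7 in NK libraries (log2 fold change -1.59 ± 0.27, adjusted p = 8.16e-05). Dpp4, which encodes the peptidase CD26, was lower by a log2 of -1.88 ± 0.30 (adjusted p = 4.39e-05) and Egr2 by -0.35. Zbtb16, the PLZF gene that marks NKT cells, measured 2.58 to 41.4 CPM in the lymphomas, 10.4 to 18.1 in T cells, 44.5 to 58.0 in NKT cells and 50.5 to 82.6 in NK libraries, and was not called because its difference from T cells (0.06) had the other sign than those from NKT (-1.86) and NK cells (-2.33).

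Among genes of killer cells more were higher than lower. Of 16 NK receptor genes 5 were higher (Cd244a, Klrb1b, Klrc1, Klrd1 and Klrg1) and Cd96 was lower, with a median of 0.82. The share higher was 31.2% against a level share of 23.4%. Over the settings 3 to 7 were higher and 1 to 3 lower, with 3 of each under TMM over the whole genome, and the median ran from 0.28 on cyclic-loess values to 1.21 in promoter peaks alone. Klrg1, an inhibitory receptor of effector T and NK cells, measured 66.9 to 183 CPM in the lymphomas, 6.94 to 26.6 in T cells, 75.5 to 87.1 in NKT cells and 40.9 to 128 in NK libraries (log2 fold change 1.23 ± 0.21, adjusted p = 6.56e-05). Its difference was largest against T cells (2.68) and smaller against NKT (0.59) and NK cells (0.42). Cytotoxic effectors had 7 of 15 higher and none lower (Ccl3, Ccl4, Ccl5, Fasl, Gzma, Gzmk and Gzmm), with a median of 0.78 and a share higher of 46.7% against a level share of 15.5%. Gzma and Gzmk are neighbours on chromosome 13, and Ccl3, Ccl4 and Ccl5 belong to 1 chemokine cluster, so the 7 are not all separate cases. Over the settings 4 to 10 were higher and 0 to 2 lower. The median was 0.39 on cyclic-loess values and 0.10 without T cells, where 6 were higher and 1 lower. Gzmk, a granzyme of memory-like CD8 and innate-like T cells, measured 61.2 to 148 CPM in the lymphomas against 20.1 to 28.5 in T cells, 23.5 to 35.0 in NKT cells and 31.3 to 68.0 in NK libraries. Only 1 NK library reached into the lymphoma range (log2 fold change 1.74 ± 0.19, adjusted p = 4.79e-07). Of 8 peaks annotated to Gzmk alone 5 were higher and 3 were not called. Gzma measured 41.7 to 106 CPM in the lymphomas, at most 16.4 in T and NKT, and 20.3 to 79.0 in NK libraries (log2 fold change 2.11 ± 0.23, adjusted p = 4.40e-07). Gzmb and Prf1, the other main granule genes, were not called: Gzmb was 2.30 above T cells, -0.12 from NKT and 0.18 from NK cells on the log2 scale.

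Effector transcription factors had 6 of 15 higher and none lower, with a median of 0.17 and a share higher of 40% against a level share of 12.2%. Over the settings 1 to 6 were higher and 0 to 3 lower, and TMM over the whole genome gave 4 higher, 3 lower and a median of -0.07. Eomes, the T-box factor of killer cells, measured 24.9 to 67.9 CPM in the lymphomas, 15.4 to 31.8 in T cells, 2.50 to 9.05 in NKT cells and 19.4 to 36.9 in NK libraries (log2 fold change 1.77 ± 0.22, adjusted p = 2.54e-06). The other 5 were Batf3, Id2, Nfil3, Runx3 and Zfp683, with smaller log2 fold changes from 0.31 to 1.02, and Runx3 (0.39) was at -0.01 in the smaller table and -0.03 in promoter peaks alone. Tbx21, the T-bet gene, was 1.41 above T and 0.65 above NK cells but -0.17 from NKT cells and was not called. In NK receptor signalling 2 of 14 were higher (Fyn and Sh2d1b2), with 9 higher without NK cells and 0 without T cells. The share higher was 14.3%, under the level share of 19.2%, and none was lower against a level share of 20.3%. Tyrobp and Ncr1 had fitted levels between those of T and NK cells: Tyrobp measured 17.2 to 42.7 CPM in the lymphomas, 5.02 to 7.72 in T and 49.3 to 76.7 in NK libraries.

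**Figure D4:**
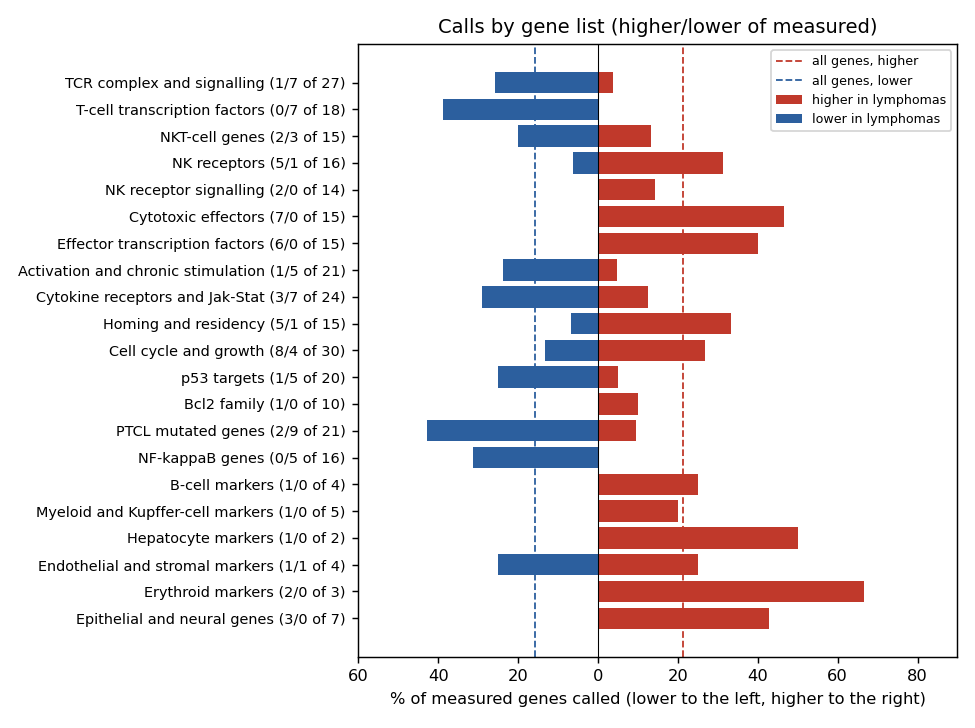
Percent of the measured genes of each list that were called lower (blue, to the left) or higher (red, to the right) in the lymphomas, with the counts beside each name and the shares over all genes of any level as dashed lines. T-cell transcription factors have 0 higher and 7 lower of 18, and cytotoxic effectors have 7 higher and 0 lower of 15.

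Several immediate-early genes and the IL-7 receptor gene were lower. In the activation list 5 of 21 genes were lower (Egr1, Fos, Jun, Junb and Tox), 1 was higher (Tox2) and the median was -0.02 (-0.20 to 0.07 over the settings, with 2 to 7 lower). The share lower, 23.8%, was under the level share of 33.1%. Jun, a subunit of AP-1, measured 83.9 to 162 CPM in the lymphomas and 172 to 274 in normal libraries, without overlap (log2 fold change -0.83 ± 0.13, adjusted p = 3.67e-05). Among cytokine receptors and Jak-Stat genes 7 of 24 were lower (Ifngr1, Il12rb2, Il2ra, Il7r, Jak2, Stat3 and Stat5b), 3 were higher (Il12rb1, Il18rap and Stat6) and the median was -0.04 (-0.17 to 0.09 over the settings, with 3 to 7 lower and 2 to 6 higher). The share lower was 29.2% against a level share of 27.3%. Stat6 was at -0.02 with TMM over the whole genome. Il7r, the receptor of the survival cytokine IL-7, measured 1.71 to 50.2 CPM in the lymphomas, 62.4 to 77.7 in T cells, 56.8 to 83.4 in NKT cells and 11.8 to 23.9 in NK libraries. The lymphoma range covered that of NK cells, and all 3 Il7r peaks were lower (gene log2 fold change -2.13 ± 0.43, adjusted p = 0.000424). Homing and residency genes had 5 of 15 higher (among them Cx3cr1, Itga1, Itgae and S1pr5), Klf2 lower and a median of 0.44, and the share higher was 33.3% against a level share of 14.2%. Over the settings 2 to 5 were higher and 1 to 3 lower, and the median fell to 0.17 with TMM over the whole genome and 0.12 by limma voom.

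Cell-cycle and growth genes had 8 of 30 higher, 4 lower and a median of 0.07 (-0.05 to 0.17 over the settings, with 4 to 10 higher and 0 to 7 lower). The share higher was 26.7% against a level share of 13.1%. The genes that were higher were Ccnb1, Ccnd1, Cdk2, Cdkn2a, E2f2, Myc, Mycn and Plk1, and those that were lower were Ccne1, Cdk6, Cdkn1b and Mcm2. Ccnb1 was at -0.02 with TMM over the whole genome, E2f2 at -0.69 in the smaller table and Cdk6 at 0.03 with windows of 20 Mb. Mycn measured 17.7 to 72.0 CPM in the lymphomas, 7.43 to 16.3 in T cells, 4.17 to 7.72 in NKT cells and 16.4 to 61.3 in NK libraries (log2 fold change 1.45 ± 0.28, adjusted p = 0.000279). Myc, on chromosome 15, was higher by 0.40 ± 0.16 (adjusted p = 0.0411). Mki67, the proliferation marker, was not called, with a log2 fold change of 0.05. Of p53 target genes 5 of 20 were lower (Ccng1, Gadd45a, Rrm2b, Tnfrsf10b and Trp53inp1), 1 was higher (Perp) and the median was -0.21 (-0.33 to 0.04 over the settings, with 2 to 7 lower). The share lower was 25% against a level share of 23%. Rrm2b, on chromosome 15, was at 0.31 to 0.36 on scalings over the whole genome, and Tnfrsf10b at 0.39 in promoter peaks alone. Trp53inp1, a stress-induced p53 partner, measured 37.7 to 85.8 CPM in the lymphomas and 77.9 to 134 in normal libraries (log2 fold change -0.90 ± 0.14, adjusted p = 2.86e-05). The classical targets Cdkn1a and Mdm2 were not called, at 0.40 and 0.13.

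Mcl1, an anti-apoptotic member of the Bcl2 family, was the 1 of 10 family genes that was higher, and none was lower (list median 0.23). Over the settings 1 to 4 were higher and 0 to 1 lower, and TMM over the whole genome gave 3 higher, 1 lower and a median of 0.07. The family's share higher was 10% against a level share of 16.3%, and its share lower was 0% against 24.2%. Mcl1 measured 96.3 to 673 CPM in the lymphomas (median 139) and 72.1 to 153 in normal libraries, with wide overlap (log2 fold change 1.31 ± 0.33, adjusted p = 0.00309). The 804 tested peaks within 1 Mb of Mcl1, a stretch that also holds Gm24830, had a median log2 fold change of 1.57, so Mcl1 did not stand out from its surroundings. Scaling within windows of 20 Mb gave 0.87 (adjusted p = 0.0195), and without mPTCL 1 the value was 1.02 (adjusted p = 0.00528). Bcl2 was not called, at 46.6 to 208 CPM in the lymphomas and 139 to 276 in normal libraries. Of genes recurrently mutated in human peripheral T-cell lymphoma, 9 of 21 were lower (Arid1b, Arid2, Atm, Cd28, Idh2, Kmt2c, Stat3, Stat5b and Tet2) and 2 were higher (Ccr4 and Fyn), with a median of -0.15. The share lower was 42.9% against a level share of 32.7%. The balance turned on cyclic-loess values, with 4 higher, 3 lower and a median of -0.05, and library totals and RLE gave 3 higher and 4 lower each. Ccr4 (-0.23) and Fyn (-0.29) were negative in promoter peaks alone. Tet2, the methylcytosine dioxygenase, measured 34.5 to 65.4 CPM in the lymphomas against 56.2 to 90.1 in normal libraries (log2 fold change -0.59 ± 0.14, adjusted p = 0.00197). Arid2, Kmt2c and Stat3 lie on chromosomes 15, 5 and 11 and took a positive sign on scalings over the whole genome (0.50 to 0.56, 0.15 to 0.21 and 0.21 to 0.26). NF-kappaB genes had 5 of 16 lower (Birc3, Nfkbib, Nfkbiz, Rel and Relb) and none higher, with a median of -0.15 (0.02 with windows of 20 Mb) and 2 to 6 lower over the settings. Their share lower was 31.2%, as was the level share, and Rel, on chromosome 11, also changed sign on those scalings (0.13 to 0.18).

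Single peaks of list genes separated the groups in some genes that were not called and in many that were called in the same direction. Pdcd1, the PD-1 gene, was not called as a gene, with a log2 fold change of 0.01, yet 1 intronic peak (chr1:94040207-94040707) had every lymphoma above every normal library and a log2 fold change of 2.82. Flanking peaks of Ccl4 (chr11:83658065-83658565, 3.41) and of Syk (chr13:52651387-52651887, 1.83), an intronic peak of Gzmk (chr13:113183244-113183744, 3.08), an intronic peak of Ikzf3 (1.91) and a promoter peak of Klrg1 (2.60) were likewise free of overlap. Of losses without overlap, an intronic Cblb peak (chr16:52147385-52147885) had -3.13, an intronic Arid1b peak -3.31, a flanking Cdkn1b peak -2.06 and an intronic Ets1 peak -1.80. Promoter peaks with every lymphoma below every normal library included those of Slamf6 (-2.29), Trp53inp1 (-1.24), Jun (-1.21), Bach2 (-1.10), Cblb (-0.98), Klf2 (-0.82) and Relb (-0.68). These peaks were picked after their values were seen, by the absence of overlap. Over all genes with at least 3 tested peaks, 662 of 7287 held peaks called in both directions, and 86 had every peak higher and 32 every peak lower.

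Markers of other cells that a liver sort could hold were measured as well. Of the listed markers, 1 of 4 measured B-cell genes (Blk), 1 of 5 myeloid and Kupffer-cell genes (Cd68), 1 of 2 hepatocyte genes (Hnf4a), 2 of 3 erythroid genes (Epor and Hba-a1) and 3 of 7 epithelial and neural genes (Gfap, Neurod1 and Pax6) were higher, and endothelial and stromal genes had Col1a1 higher and Pecam1 lower of 4 (Pecam1 was at 0.05 on cyclic-loess values). The shares higher were 25% of B-cell genes (level share 25.4%), 20% of myeloid (29.7%) and 50% of hepatocyte genes (32.9%). They were 25% of endothelial and stromal (22.1%), 66.7% of erythroid (31.8%) and 42.9% of epithelial and neural genes (30.5%). These lists hold few measured genes. The summed level of the hepatocyte markers was 29.4 to 69.4 CPM in the lymphomas, 11.6 to 20.8 in T cells, 4.31 to 14.0 in NKT cells and 20.9 to 71.3 in NK libraries. That of the myeloid markers was 100.3 to 150.3 CPM in the lymphomas, 59.7 to 70.0 in T cells, 50.4 to 57.8 in NKT cells and 110.1 to 159.9 in NK libraries. The B-cell markers summed to 103.4 to 202.4 CPM in the lymphomas, 72.9 to 93.1 in T cells, 48.8 to 59.1 in NKT cells and 140.0 to 194.3 in NK libraries. The NK ranges overlapped those of the lymphomas in all 3 sums. The defining genes Cd79a, Ms4a1, Csf1r, Lyz2, Alb and Ttr were not among the genes measured. The part of other cells in the gains was not tested, and genes of the weakest level class were higher in 38.1% of cases.

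Zinc-finger genes formed a group among the losses that was noticed after the results were seen. Of 333 genes with a name in Zfp, 103 were lower (30.9%), 26 were higher (7.81%), and 23 had every lymphoma below every normal library against none above. Their median log2 fold change was -0.19, below 0 under every scaling tried, and their median level (5.005 log2 CPM) was close to that of all genes (5.04). In the upper 3 level classes the share that was lower was 41.5% of 82 Zfp genes and 33.0% of all 6098 genes. Zfp78 measured 1.05 to 118.8 CPM in the lymphomas (median 56.5) and 118.9 to 310.5 in normal libraries (log2 fold change -2.06 ± 0.40, adjusted p = 0.000269).

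Among the strongest promoters the NF-Y motif was more frequent in those that were lower than in those not called. NF-Y is a trimeric factor that binds CCAAT boxes, common in promoters of housekeeping and cell-cycle genes. The letters GATTGG, searched on both strands so that CCAATC counts as well, occurred in 31.2% of 1993 RefSeq windows under promoter peaks that were lower, 19.8% of 5805 windows not called and 17.1% of 624 windows under peaks that were higher, against 22.3% of all 8422 windows and 16.1% of 32851 RefSeq windows in all. Where every lymphoma lay below every normal library, 104 of 232 windows (44.8%) held it. The strongest class held the motif most often, without a steady rise below it. Windows not called held it in 20.9% of 249 cases in classes 1 to 3 and in 13% of 523 in classes 4 to 6. Among the tenth of peaks with the highest level the shares were 48.7% of 197 windows with no overlap, 35.1% of 1573 windows that were lower and 27.7% of 2321 that were not called. Among all other peaks they were closer, at 16.7% of 420 windows that were lower and 14.5% of 3484 not called. Windows under higher peaks held the motif in 40% of only 20 cases in the strongest class. In level classes 7 to 9 the shares were 18.1% of 265 higher, 14.8% of 357 lower and 14.2% of 2712 windows not called. In classes 4 to 6 they were 11.4% of 201, 25.9% of 58 and 13% of 523 windows. In the upper classes the motif thus did not set lower promoters apart from higher ones. The promoter form of the ETS motif (CCGGAAG) showed a different pattern, at 7.37% under peaks that were higher, 21.6% under peaks that were lower and 20.6% under peaks not called. The ETS motif followed the level of the peak, and the median levels of the 3 sets were 3.18, 5.92 and 4.89 log2 CPM. In level classes 7 to 9 the shares were 10.2% of 265, 15.4% of 357 and 20.5% of 2712 windows. In classes 4 to 6 they were 3.48% of 201, 5.17% of 58 and 8.22% of 523 windows. In classes 1 to 3 they were 4.35% of 138 windows under higher peaks and 3.21% of 249 not called. The order differed in the strongest class, at 30% of only 20, 23.6% of 1573 and 25.3% of 2321 windows. SP/KLF (CCCCGCCC) differed little, at 40.2%, 39.7% and 36.4%. A match says only that the letters are in the window, and no test was made over windows.

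**Figure D5:**
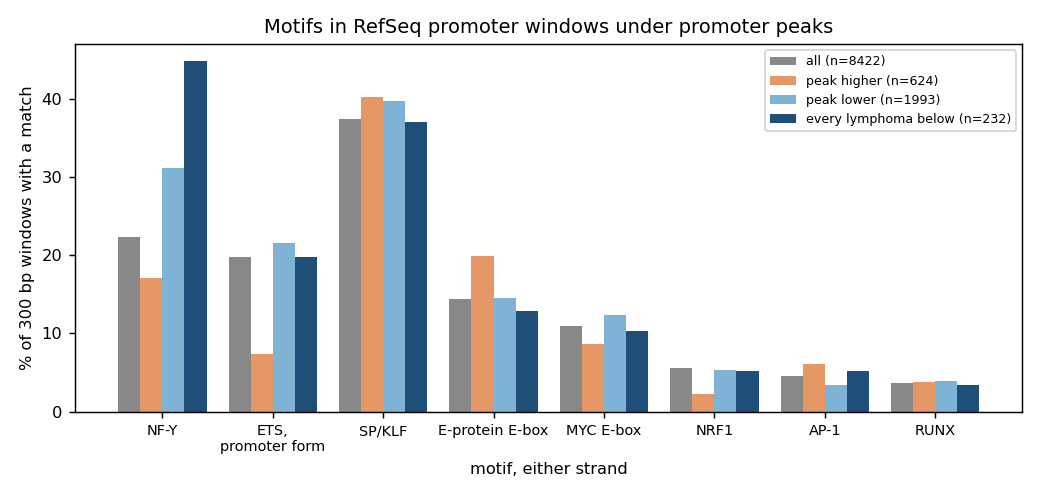
Percent of RefSeq promoter windows of 300 bases, of any level, that hold each motif on either strand, for all windows under a tested promoter peak and for windows under peaks that were higher, lower, or lower with every lymphoma below every normal library. NF-Y reaches 44.8% in the last set against 22.3% of all windows, and the promoter form of ETS falls to 7.37% under peaks that were higher.

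Promoters of Slamf6, Cblb and Zfp975 are examples from the lymphoid and zinc-finger groups above in which every lymphoma lay below every normal library. The 250 bases before their RefSeq starts lie at chr1:171917212-171917461 (plus strand), chr16:52031299-52031548 (plus) and chr7:42692719-42692968 (minus), with the NF-Y letters in capitals. All 3 examples hold these letters, against 44.8% of windows with no overlap, so they do not show how often the motif occurs. The Slamf6 and Zfp975 peaks lay outside the tenth of peaks with the highest level. Of the 250 bases shown for Slamf6, 110 lie under its peak.
Slamf6: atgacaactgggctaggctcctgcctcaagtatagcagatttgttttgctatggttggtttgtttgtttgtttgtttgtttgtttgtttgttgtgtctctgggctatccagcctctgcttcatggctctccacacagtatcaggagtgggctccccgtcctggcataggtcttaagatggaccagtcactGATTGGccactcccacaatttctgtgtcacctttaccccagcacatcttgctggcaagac
Cblb: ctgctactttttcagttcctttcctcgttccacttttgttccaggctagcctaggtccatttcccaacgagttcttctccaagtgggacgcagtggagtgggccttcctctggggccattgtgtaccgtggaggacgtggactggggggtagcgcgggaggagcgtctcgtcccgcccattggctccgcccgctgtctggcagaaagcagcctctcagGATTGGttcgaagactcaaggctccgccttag
Zfp975: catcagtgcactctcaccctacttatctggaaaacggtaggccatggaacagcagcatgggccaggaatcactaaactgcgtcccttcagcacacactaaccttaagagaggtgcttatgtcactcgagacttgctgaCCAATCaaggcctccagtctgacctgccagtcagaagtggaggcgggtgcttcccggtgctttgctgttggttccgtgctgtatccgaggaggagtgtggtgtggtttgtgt

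The lymphomas differed in how far they carried the called changes. Of the peaks that were higher, each lymphoma exceeded all 9 normal libraries in 42.8% to 61.3%, and of those that were lower each lay under all normal libraries in 37.7% to 56.3%. The peaks were called from these same 9 lymphomas, so agreement in sign is largely built in and is no separate evidence. Single lymphomas kept the fitted sign in 86.7% to 98.9% of peaks that were higher and in 91.2% to 99.2% of those that were lower. The lymphoma with the fewest counts in peaks, mPTCL 8 (670358), had the lowest of these shares except the 37.7%, which belonged to mPTCL 3 (3771074 counts). Full separation was rarer: 3.685% of the peaks that were higher and 7.78% of those that were lower separated all 9 lymphomas from all normal libraries, while 12.8% of the genes that were lower did.

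Counts per chromosome also separated the groups. All 9 lymphomas had a larger share of their counts on chromosomes 5, 11 and 15 than any normal library, and a smaller share on chromosomes 2, 10, 13 and 16. On chromosome 15 the share was 6.89% to 11.3% in the lymphomas and 4.48% to 5.06% in normal libraries, and on chromosome 13 it was 1.97% to 3.07% against 3.64% to 4.22%. Scaling within chromosomes removes such shifts from the calls: on chromosome 15 it gave 788 peaks higher and 250 lower, where scaling over the whole genome gave 2406 and 52. DNA copy number was not measured in these files.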

How the data were processed

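ATAC-seq was measured in 18 libraries. The values used were whole-number read counts per peak, deposited by the authors without normalization in a larger and a smaller table, with peak start and end positions in bp given per the file headers. MACS2 2.1.2, bedtools, edgeR 3.24.3 and the mm10 build are named in the submitters' processing notes; neither the aligner, the duplicate filter nor how peaks were selected is given in the sources used here. Chromosome-scaled CPM was computed from the deposited counts of the larger table, which holds 61224 peaks, with TMM factors taken within each chromosome.

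Peaks, and counts summed per gene symbol, were tested with edgeR 4.0.16 (quasi-likelihood, 14 residual degrees of freedom for peaks, Benjamini-Hochberg over all features) in R 4.3.3 with data.table (version 1.17.8), as mPTCL minus the mean of T, NKT and NK. The biological coefficient of variation was 0.407 for peaks and 0.268 for genes. Alternatives used limma 3.58.1, DESeq2 1.42.0, other scalings, filters, the smaller table and left-out libraries. The code was checked on simulated counts. No 2 libraries of a group agreed within sampling noise (lowest chi-square per degree of freedom 2.24).

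Named genes were the members of 21 lists, then the 12 genes higher and 12 lower, and the 8 peaks higher and 8 lower, with the largest smallest difference over the 3 normal groups (genes with at least 2 peaks, a mean count of at least 20 in the higher arm and at least 4 counts in each normal group or in the lymphomas). Some genes and peaks that this rule takes in are not reported here, though they stay in the counts of each list. The members, lists and tests were chosen with earlier results of these data known. Promoter sequences came from RefSeq (GRCm38.p6), matched by symbol to 8422 of 19979 promoter peaks with an overlap of at least 150 bp.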

Additional observations from a re-analysis of the deposited data

Results flagged for a closer look

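Of 43 sets of 9 lymphoma values checked, 8 had 1 library far from the others by Dixon's ratio. Chance passes that test in about 1 of 20 sets of normally distributed values. Most sets here were CPM without logs of genes picked for large changes, to which that rate need not apply. The 8 are therefore not read as an excess. Irs2 stood at 58.3 CPM in mPTCL 4, with the next lymphoma at 30.2. Vamp9 stood at 35.9 CPM in the same library, with the next at 16.6. In mPTCL 9, Tle1 was at 20.5 CPM (next 10.2), C630043F03Rik at 13.2 CPM (next 6.40) and Lxn at 12.5 CPM (next 7.06). In mPTCL 8, the shallowest lymphoma library, Slc25a5-ps was at 50.6 CPM (next 17.0) and Pcbp3 at 74.7 CPM (next 36.8). Gtsf1 was at 11.5 CPM in mPTCL 6 (next 7.80). In the 7 genes that were lower, the library apart was the highest lymphoma. C630043F03Rik and Tle1 share a promoter peak, so they are not separate cases.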

How the results depend on the processing

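Peaks higher numbered 16874 with library totals, 18240 with RLE, 5181 on cyclic-loess values, 6748 with the normal libraries as 1 group, 4438 with a mean count of at least 20 (fewer peaks tested), 3444 in the smaller table and 5026 without the NKT group; peaks lower numbered 2556, 3221 and 10941 in the smaller table, without NKT and without NK. Genes higher numbered 2211 in the smaller table, 2842 in promoter peaks alone and 2733 without NKT, and genes lower 2011 in the smaller table. Leaving out 1 library at a time gave 9088 to 11945 peaks higher, 5019 to 5949 lower, 3979 to 4414 genes higher and 2907 to 3298 lower. In the smaller table the promoter share differed by -0.747 points, the intronic by -0.503 (reversed) and the intergenic by 0.186 (adjusted p = 0.492 for each, exact permutation test); the intronic difference was 1.53 without T (adjusted p = 0.0998, exact permutation test). The 5' UTR difference passed without NK (0.0676) and without mPTCL 3 or mPTCL 5, and ran from 0.0364 to 0.0633 when 1 library was left out.

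Named genes whose log2 value changed sign were, with TMM over the whole genome, Arid2 (0.50), Ccnb1 (-0.018), Kmt2c (0.15), Rel (0.13), Rrm2b (0.31), Stat3 (0.21) and Stat6 (-0.018). With library totals they were Arid2 (0.54), Ikzf1 (0.034), Kmt2c (0.20), Rel (0.17), Rrm2b (0.35), Stat3 (0.26) and Tcf7 (0.0088), and with RLE the same genes at 0.56, 0.039, 0.21, 0.18, 0.36, 0.26 and 0.018. On cyclic-loess values they were Arid2 (0.59), Ikzf1 (0.093), Kmt2c (0.31), Pecam1 (0.048), Rel (0.26), Rrm2b (0.44), Stat3 (0.34) and Tcf7 (0.044). Cdk6 (0.0295) did so with windows of 20 Mb, Ccr4 (-0.16), E2f2 (-0.69) and Runx3 (-0.0089) in the smaller table, and Ccr4 (-0.23), Fyn (-0.29), Prkcq (0.19), Rasgrp1 (0.26), Runx3 (-0.034) and Tnfrsf10b (0.39) in promoter peaks alone. The cause was not tested. Of 136 named genes, 31 lost their call without at least 1 library and 0 changed sign. NK libraries had the fewest counts (417107 to 596601), which limits weak peaks most. No paired analysis was possible because the labels give the lymphomas no replicate numbers to share with the normal groups.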
